A study of Homo sapiens with 6 samples.

Results

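Peaks of R-loop signal were described over 9 genes that the transcription factor p53 activates: MDM2, BAX, BBC3, GADD45A, GADD45B, SESN1, SESN2, BTG2 and TP53I3. They were taken by name from a list, and all 9 were found among 19821 protein-coding genes of RefSeq (GRCh38). The rule that picks them uses no measured value, but the list was drawn up with earlier results of these data known. The locus of a gene is the annotated gene with 1000 bp on each side, and its covered percent is the part of the locus that lies under peaks of a library.

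The cells were IMR90, a line of human embryonic lung fibroblasts of wild-type genotype, grown at 2% oxygen. Cells in 3 states were mapped with MapR, in which an RNase H domain fused to micrococcal nuclease (RH-MNase) binds RNA-DNA hybrids and releases the DNA around them: proliferating cells with a control vector, senescent cells with ectopic Ras, and quiescent cells after starvation. Neither the Ras construct nor the length of the treatments is given in the sources used here. Each state has 1 RH-MNase peak list, so no difference below has a replicate check, and no p-value or error between states was computed. The GST-MNase libraries, which give the background of the free enzyme, are not analysed here.

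An R-loop forms where RNA stays paired with the DNA strand it was copied from and leaves the other strand unpaired, often near the start of a transcribed gene. The protein p53 is stabilised by DNA damage and by oncogene signalling and then raises transcription of genes that halt the cell cycle, repair DNA, limit oxidative stress or start cell death. Its own destruction is driven by the product of one of these targets, MDM2, which closes a feedback loop. Activated Ras engages p53 in fibroblasts, and p53 is one of the factors that hold the senescent arrest. A peak is a place of R-loop signal and no measure of how much of a gene's RNA is made.

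The proliferating list held 101802 peaks over 85.4 Mb, the senescent list 85564 peaks over 54.1 Mb and the quiescent list 9736 peaks over 4.12 Mb. Read depth is unknown, so list length and state cannot be told apart. Peaks lay over 9 of 9 fibroblast marker genes in the proliferating list, over 7 in the senescent list (DCN and LUM had none) and over 4 in the quiescent list. Of 9 markers of other cell types, 6 had a peak in the proliferating and 6 in the senescent list, with none over KRT5, HBB and ALB, and 1 had a peak in the quiescent list. In lists from bulk cells, fewer cells with an R-loop and a weaker signal per cell cannot be told apart.

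All 9 p53 target loci carried a peak in each of the 3 lists. For the quiescent list this depends on the flank: with a flank of 500 bp or none, 8 of the 9 had a quiescent peak (33.4% and 28.7% of all genes), and SESN1 had none. The quiescent peak of SESN1 lies 733 to 878 bp before its start. Among all protein-coding genes 83.4% had a peak in the proliferating, 80.3% in the senescent and 34.4% in the quiescent list, and 34.2% had one in all 3. The members' count therefore stands closer to the background in the 2 long lists than in the short quiescent list. With the same rule applied to the upper part of the quiescent list, at or above its median score of 20, 8 of the 9 had a peak, against 20.1% of all genes; GADD45B was the one without.

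The median covered percent of the 9 loci was 37.2% in proliferating cells, 34.3% in senescent cells and 4.34% after starvation. Over all protein-coding genes, not matched on length, the medians were 5.90%, 3.20% and 0%. MDM2 and SESN1 lay below them in proliferating (4.92% and 3.15%) and senescent cells (1.83% and 1.98%). The spread among the members was wide, from 3.15% (SESN1) to 100% (GADD45B) in proliferating cells, with a mean of 39.4% (SD 31.1 across 9 genes). The means were 27.4% (SD 20.5) in senescent and 7.34% (SD 7.49) in quiescent cells. Short loci had the larger covered percent: Spearman's rho between locus length and covered percent across the 9 genes was -0.83, -0.85 and -0.62 in the 3 libraries, against -0.30, -0.25 and 0.05 over all protein-coding genes. The genes share a library and its depth, so these values are descriptions.

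**Figure D1:**
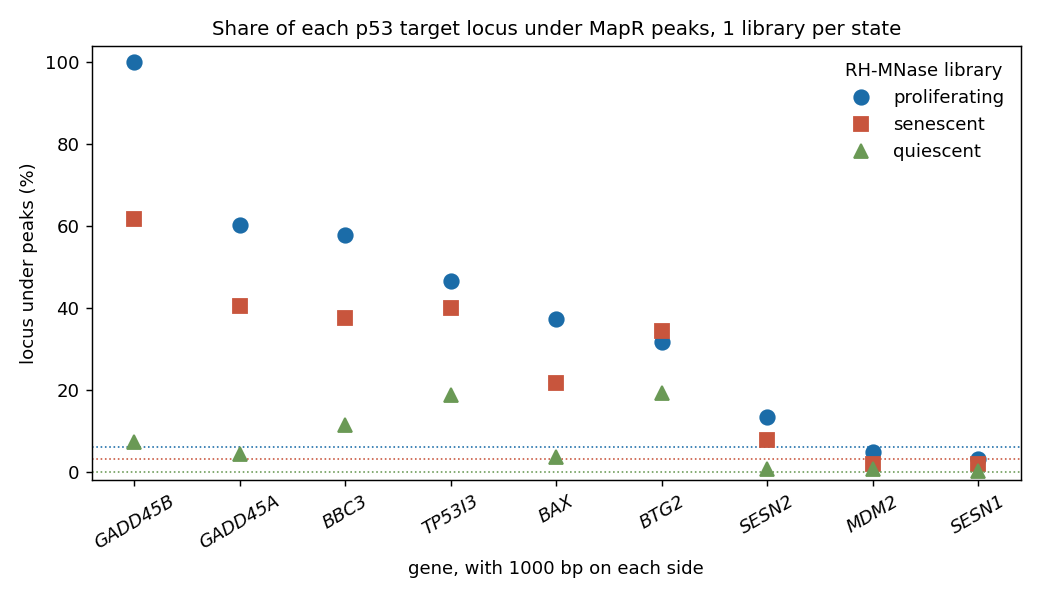
Covered percent of the locus (y axis, 0 to 100%) for each of the 9 genes (x axis, ordered by the proliferating value), with 1 point per RH-MNase library and no error, since each state has 1 library. Dotted lines give the median of all protein-coding genes in each library; BTG2 is the gene whose senescent point (34.3%) lies above its proliferating point (31.6%).

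The senescent library was set against the proliferating one to see how R-loop signal over p53 targets differs after Ras-induced arrest. Of the 9 genes, 8 had a lower covered percent after Ras and BTG2 a higher one. Lower values were also found for 72.5% of all protein-coding genes and for 86.9% of those with a proliferating peak, so this count stands near the background. Higher senescent values were found for 13.2% of all protein-coding genes, a share that also counts genes without a proliferating peak. One gene, MDM2, was at least 2 times lower, where 30.7% of all protein-coding genes were, and none was at least 2 times higher, where 4.35% were. All 9 had a proliferating peak, and of the 16535 genes with one 6084 were at least 2 times lower. With the 9736 highest peaks of each list MDM2 had no peak in either library, and its call was lost. The ratio of senescent to proliferating covered percent had a median of 0.63 over the 9 genes and of 0.60 over the 16535 protein-coding genes with a proliferating peak. The 2 medians lie close together. At a threshold of 1.5 times 6 genes were lower, where 49.6% of all genes were, and none was higher, where 6.07% were. Of the 16535 genes with a proliferating peak 9826 were lower at that threshold.

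The quiescent library was set against the same proliferating library. At least 2 times lower were 8 of 9 genes, where 82.7% of all genes were, and none was at least 2 times higher, where 0.00505% were. A gene without a proliferating peak cannot be called lower, and all 9 had one. Of the 16535 genes with a proliferating peak 16384 were called lower, so the count of 8 does not stand above the background. BTG2 was the exception, with 0.61 times its proliferating cover, followed by TP53I3 with 0.40 times; the other 7 genes lay between 0.041 (SESN1) and 0.20 (BBC3) times. The ratio of the mean covered percents was 0.19 for the 9 genes and 0.078 for all genes; the median of the genes' own ratios was 0.099 for the 9 and 0 for all genes with a proliferating peak. Against the senescent library 8 genes were at least 2 times lower in quiescent cells, where 75.9% of all genes were, and none was higher, where 0.262% were; BTG2 again was the exception, at 0.56 times. Of the 15916 genes with a senescent peak 15046 were lower by this rule.

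MDM2 encodes the ubiquitin ligase that marks p53 for destruction. It lies on chromosome 12 from 68808172 to 68850686 and is transcribed from an upstream promoter and from a second promoter inside the first intron, which p53 drives. RefSeq lists starts at 0, 5, 845 and 852 bp from the most upstream one. The covered percent was 4.92% in proliferating cells, 1.83% in senescent cells and 0.75% in quiescent cells, or 2189, 815 and 335 bp. In proliferating cells 1 peak ran from 760 bp before to 899 bp after the upstream start and took in all 4 listed starts. Smaller peaks of 195 and 334 bp lay 6694 and 21509 bp inside the gene, and neither had a counterpart in the other 2 lists. In senescent cells 1 peak ran from 153 bp before to 661 bp after the upstream start, and in quiescent cells from 83 bp before to 251 bp after it. The 3 peaks are nested, and only the proliferating one reaches the second promoter's starts.

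The windows of 300 bases around an upstream and a downstream start of MDM2 (250 bases before to 50 after, GRCh38.p14, plus strand, RefSeq) are shown because the edge of the senescent peak falls inside both. Capitals mark bases under the senescent peak.
MDM2 upstream start, chr12:68807922-68808221: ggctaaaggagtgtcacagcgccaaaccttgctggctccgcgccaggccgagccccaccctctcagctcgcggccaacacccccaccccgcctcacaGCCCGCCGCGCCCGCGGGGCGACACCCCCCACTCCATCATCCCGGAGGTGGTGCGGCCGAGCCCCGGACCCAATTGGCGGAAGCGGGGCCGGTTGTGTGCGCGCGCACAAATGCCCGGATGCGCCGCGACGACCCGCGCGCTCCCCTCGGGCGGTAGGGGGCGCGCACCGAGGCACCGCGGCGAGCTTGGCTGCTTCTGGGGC
MDM2 downstream start, chr12:68808767-68809066: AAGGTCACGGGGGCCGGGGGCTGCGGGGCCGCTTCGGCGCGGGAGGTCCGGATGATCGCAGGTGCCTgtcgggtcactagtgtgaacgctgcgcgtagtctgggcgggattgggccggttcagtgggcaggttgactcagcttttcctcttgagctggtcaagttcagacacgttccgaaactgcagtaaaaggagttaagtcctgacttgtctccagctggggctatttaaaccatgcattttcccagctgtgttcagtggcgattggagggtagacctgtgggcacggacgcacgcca

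A p53 response element is a pair of half-sites of 10 bases each. No MDM2 window held an exact match to the p53 half-site consensus. Pairs of half-sites without a spacer and with at most 3 mismatches over 20 bases occurred in 4.74% of all 22130 coding start windows. The downstream MDM2 window held 2 of them, at chr12:68808923-68808942 (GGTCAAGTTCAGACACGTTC, 2 mismatches, first base 94 bp before that start) and at chr12:68808961-68808980 (AGTTAAGTCCTGACTTGTCT, 3 mismatches, 56 bp before). Both lay wholly under the proliferating peak. They lay 90 and 128 bp beyond the edge of the senescent peak and 500 and 538 bp beyond that of the quiescent peak. The upstream window held none.

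MDM4, the MDM2 relative that restrains p53 without degrading it, had 3.20% of its locus under proliferating peaks, no senescent peak and 0.86% under a quiescent peak. Of this pair of genes, MDM2 alone had a peak in the senescent list.

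GADD45A and GADD45B encode small stress proteins that bind cell cycle kinases and upstream kinases of the p38 and JNK pathways. GADD45A (chromosome 1, 67685201 to 67688334) had 60.3%, 40.6% and 4.34% of its locus covered in proliferating, senescent and quiescent cells, each by a single peak. The start table has no entry for it, so its peaks are placed from the end with the lower coordinate. The proliferating peak was 3302 bp wide and ran from 1206 bp before to 2095 bp after that end. The senescent peak was 2083 bp wide, from 394 bp before to 1688 bp after it, and the quiescent peak 223 bp wide, from 1377 to 1599 bp inside the gene. Each smaller peak lay within the next larger one. The senescent peak was wide but low: its score of 18 was at or above that of 48.8% of the list. The list's median score is 19, so GADD45A has 0% senescent cover when lower-scored peaks are left out.

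GADD45B (chromosome 19, 2476127 to 2478257) was the most covered member in the first 2 lists, with 100%, 61.6% and 7.26%. The senescent rank depends on the flank. Over the gene without flanks GADD45B had 38.6% in senescent cells, below GADD45A (53.9%), BTG2 (50%) and BBC3 (42.7%), and 100% in proliferating cells. A single proliferating peak of 6150 bp spanned the whole gene and was wider than or as wide as 99.8% of that list. In senescent cells 3 peaks lay over the locus, from 1297 to 279 bp before the start, from 987 to 1806 bp after it and from 2128 to 3712 bp after it. The gap between the first 2 took in the start itself. The one quiescent peak, of 300 bp, lay across the gene's far end, and its score of 11 was among the lowest 3.29% of that list. In senescent cells GADD45B thus had peaks on both sides of its start and none over it.

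The start window of GADD45B is shown because none of its 300 bases lay under a senescent or quiescent peak, while all lay under the proliferating peak. Capitals would mark bases under the senescent peak, and there are none. It is one of 9.46% of coding windows with TATAAA on either strand.
GADD45B start, chr19:2475877-2476176, plus strand: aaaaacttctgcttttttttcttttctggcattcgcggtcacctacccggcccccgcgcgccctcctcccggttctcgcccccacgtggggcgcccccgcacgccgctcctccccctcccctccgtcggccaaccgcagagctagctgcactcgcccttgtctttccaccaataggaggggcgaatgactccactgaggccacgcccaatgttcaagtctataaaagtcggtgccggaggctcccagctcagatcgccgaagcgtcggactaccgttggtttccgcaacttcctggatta

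GADD45G, the third gene of the family, had 87.6% of its locus under proliferating and 19.5% under senescent peaks, with no quiescent peak. Its senescent value was below those of GADD45A (40.6%) and GADD45B (61.6%), and of the 3 loci it alone had no quiescent peak.

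BTG2 encodes an antiproliferative protein that recruits the machinery that shortens mRNA tails, and it restrains entry into the cell cycle. The gene (chromosome 1, 203305519 to 203309602) had 31.6%, 34.3% and 19.2% of its locus covered. One proliferating peak ran from 624 bp before to 1298 bp after the start. The main senescent peak ran from 46 bp before to 1749 bp after it, and the quiescent peak from 18 to 1186 bp after it. The upstream edge of the signal thus lay closer to the start in both arrested states, and the senescent peak reached further into the gene. A second senescent peak of 292 bp, 2670 bp inside the gene, had a score of 12 and no counterpart in the other lists. When peaks under the median score are left out, this small peak is gone and the senescent value is 29.5%, below the proliferating 31.6%. Over the gene without its flanks the senescent value was 18.2 points higher, and with flanks of 3000 bp 1.64 points higher, so the size of the difference depends on the flank. The quiescent value is at or above that of 99.6% of protein-coding genes in that list.

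The BTG2 window is shown because the senescent peak begins within it. Capitals mark the bases under that peak; the divergent non-coding gene BTG2-DT starts 194 bp from BTG2 on the other strand. The proliferating peak took in the BTG2-DT start, which lay 148 bp outside the senescent and 212 bp outside the quiescent peak.
BTG2 start, chr1:203305269-203305568, plus strand: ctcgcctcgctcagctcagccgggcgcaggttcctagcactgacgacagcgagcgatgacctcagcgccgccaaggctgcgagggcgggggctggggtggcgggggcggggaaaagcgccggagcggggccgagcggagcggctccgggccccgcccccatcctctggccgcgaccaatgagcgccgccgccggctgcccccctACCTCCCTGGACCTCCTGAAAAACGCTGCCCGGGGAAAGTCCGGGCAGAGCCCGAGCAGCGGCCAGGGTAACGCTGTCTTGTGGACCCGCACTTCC

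BTG1, the closest relative of BTG2 and also an inhibitor of proliferation, stood apart from it. Its locus was 41.0% under proliferating peaks and 6.53% under senescent peaks, with no quiescent peak. The 2 genes were of similar cover in proliferating cells and differed in both arrested states, where BTG2 had 34.3% and 19.2%.

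BAX encodes the protein that forms pores in the outer mitochondrial membrane during cell death. The gene (chromosome 19, 48954875 to 48961798) had 37.2%, 21.5% and 3.69% of its locus covered. Both long lists placed 1 peak at each end. The proliferating start peak ran from 912 bp before to 1044 bp after the start. The senescent one began 240 bp after the start and ended at 1230 bp, and the quiescent one ran from 284 to 612 bp after it. At the far end the proliferating peak ran from 6558 to 8039 bp and the senescent peak from 6993 to 8033 bp after the start. The annotated gene ends at 6923 bp, so this senescent peak lay wholly beyond it and counts only through the flank. Without flanks BAX had 20.4% in proliferating and 14.3% in senescent cells. The far-end senescent peak had a score of 55, exceeded by 258 of the 85564 peaks of that list, and was the highest-ranked peak of any member in senescent cells. The far end had no quiescent peak. BAK1, which encodes the other pore-forming protein, had values close to those of BAX: 32.6%, 18.8% and 4.95%.

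BBC3 encodes PUMA, which frees BAX and BAK1 from their inhibitors. The gene (chromosome 19, 47220824 to 47232860, minus strand) had 57.7%, 37.5% and 11.4% of its locus covered. Its proliferating peak of 7644 bp, from 657 bp before to 6986 bp after the listed start (the annotated gene begins at -193 bp), was at least as wide as 99.9% of the peaks in that list. In senescent cells the same stretch held 3 peaks of 586, 572 and 4103 bp, and in quiescent cells 3 peaks of 175, 754 and 672 bp, all inside the gene. All 6 of these lay within the proliferating peak. The narrow quiescent peak, 1075 to 1249 bp after the start, had a score of 54, which 66 of the 9736 peaks of that list exceeded, and it lay within a senescent peak of score 44. No quiescent peak lay within 1000 bp of the listed start.

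TP53I3 (also PIG3) encodes a quinone oxidoreductase-like enzyme linked to oxidative stress in p53-driven death. The gene (chromosome 2, 24077433 to 24084834, minus strand) had 46.5%, 39.9% and 18.7% of its locus covered. Its start carried a peak of similar extent in all 3 lists, from 900 bp before to 1322 bp after the start in proliferating cells, 670 bp before to 1115 bp after in senescent cells, and 598 bp before to 1019 bp after in quiescent cells. The proliferating start peak had a score of 122, which 22 of 101802 peaks exceeded. The senescent start peak, with a score of 41, was exceeded by 1974 peaks of its list and the quiescent one, with 33, by 906. The 1618 bp width of the quiescent peak was at or above that of 99.6% of its list. The start peaks were 2223, 1786 and 1618 bp wide in the 3 lists, each smaller one within the larger.

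The TP53I3 window is shown because it was the one member window that lay wholly under a peak in all 3 lists. All of its bases are in capitals, which mark the senescent peak.
TP53I3 start, chr2:24084785-24085084, minus strand: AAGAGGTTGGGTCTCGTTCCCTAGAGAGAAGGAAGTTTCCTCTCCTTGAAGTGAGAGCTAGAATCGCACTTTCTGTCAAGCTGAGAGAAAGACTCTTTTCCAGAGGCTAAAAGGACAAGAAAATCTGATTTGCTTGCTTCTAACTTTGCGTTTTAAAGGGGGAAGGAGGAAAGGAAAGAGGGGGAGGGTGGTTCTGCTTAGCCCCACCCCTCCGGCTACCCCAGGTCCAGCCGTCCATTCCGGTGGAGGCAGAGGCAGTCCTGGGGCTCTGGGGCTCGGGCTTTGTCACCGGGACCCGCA

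A second pair of long peaks lay at the far end of TP53I3, 6257 to 9060 bp after its start in proliferating and 6433 to 8530 bp in senescent cells. The listed starts of 2 neighbours, FAM228B and SF3B6, a gene of a splicing factor, lie under both peaks. That signal cannot be given to one of the 3 genes. A quiescent peak of 137 bp lay within them and held neither start.

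SESN1 and SESN2 encode sestrins, which limit oxidative stress and restrain the growth kinase mTORC1. SESN1 (chromosome 6, 108984309 to 109094846, minus strand) is the longest of the 9 genes and had 3.15%, 1.98% and 0.13% of its locus covered, or 3543, 2230 and 146 bp. Over the most upstream start the proliferating peak ran from 1324 bp before to 907 bp after it and the senescent peak from 1082 bp before to 863 bp after it. CEP57L1 starts 317 bp away on the other strand, under both peaks. The quiescent peak, of 146 bp, lay 878 to 733 bp before the SESN1 start, on the CEP57L1 side and 416 bp beyond that gene's start. Its score of 42 was exceeded by 289 peaks of the list.

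Inside SESN1, starts are also listed 85294 and 85858 bp from the most upstream one. A proliferating peak of 1418 bp covered both of their windows. The senescent peak there was 366 bp wide and covered 98% of the last window and none of the other. No quiescent peak was present. The last window held the one exact p53 half-site found in the 13 member windows, where 6.22% of all coding windows hold one. The half-site GGACAAGTCT begins a pair with 3 mismatches, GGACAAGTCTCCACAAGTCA, at chr6:109009018-109009037 on the minus strand, 49 bp before the start. The pair lay wholly under the proliferating and the senescent peak, unlike the 2 pairs of MDM2, which lay under the proliferating peak alone. The window is shown with the bases under the senescent peak in capitals.
SESN1 last listed start, chr6:109008939-109009238, minus strand: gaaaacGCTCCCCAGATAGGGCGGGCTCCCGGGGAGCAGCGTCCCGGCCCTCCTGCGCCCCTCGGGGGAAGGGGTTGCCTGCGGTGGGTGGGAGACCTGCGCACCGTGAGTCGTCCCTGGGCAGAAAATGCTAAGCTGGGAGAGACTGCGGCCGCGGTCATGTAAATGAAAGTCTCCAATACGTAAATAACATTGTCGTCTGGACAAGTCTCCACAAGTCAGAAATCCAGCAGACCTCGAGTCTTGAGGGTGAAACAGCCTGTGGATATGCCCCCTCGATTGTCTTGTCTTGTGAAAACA

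SESN2 (chromosome 1, 28259518 to 28282491) had 13.3%, 7.72% and 0.60% of its locus covered. Its proliferating start peak ran from 602 bp before to 1748 bp after the start. In senescent cells 2 peaks, from 781 to 1397 and from 1743 to 2084 bp after the start, lay in its place, and the quiescent peak ran from 827 to 975 bp. Within the gene 2 of 3 small proliferating peaks overlapped a senescent peak, at 7288 and 13976 bp, and none overlapped a quiescent peak. SESN3, the third sestrin gene, had 4.08% and 1.14% and no quiescent peak, so that of the 3 sestrin loci those of SESN1 and SESN2 had a peak in each list and that of SESN3 in 2. The quiescent peak of SESN1 lies outside the gene and is not counted with a flank of 500 bp or none, so with those flanks SESN2 alone had one.

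**Figure D2:**
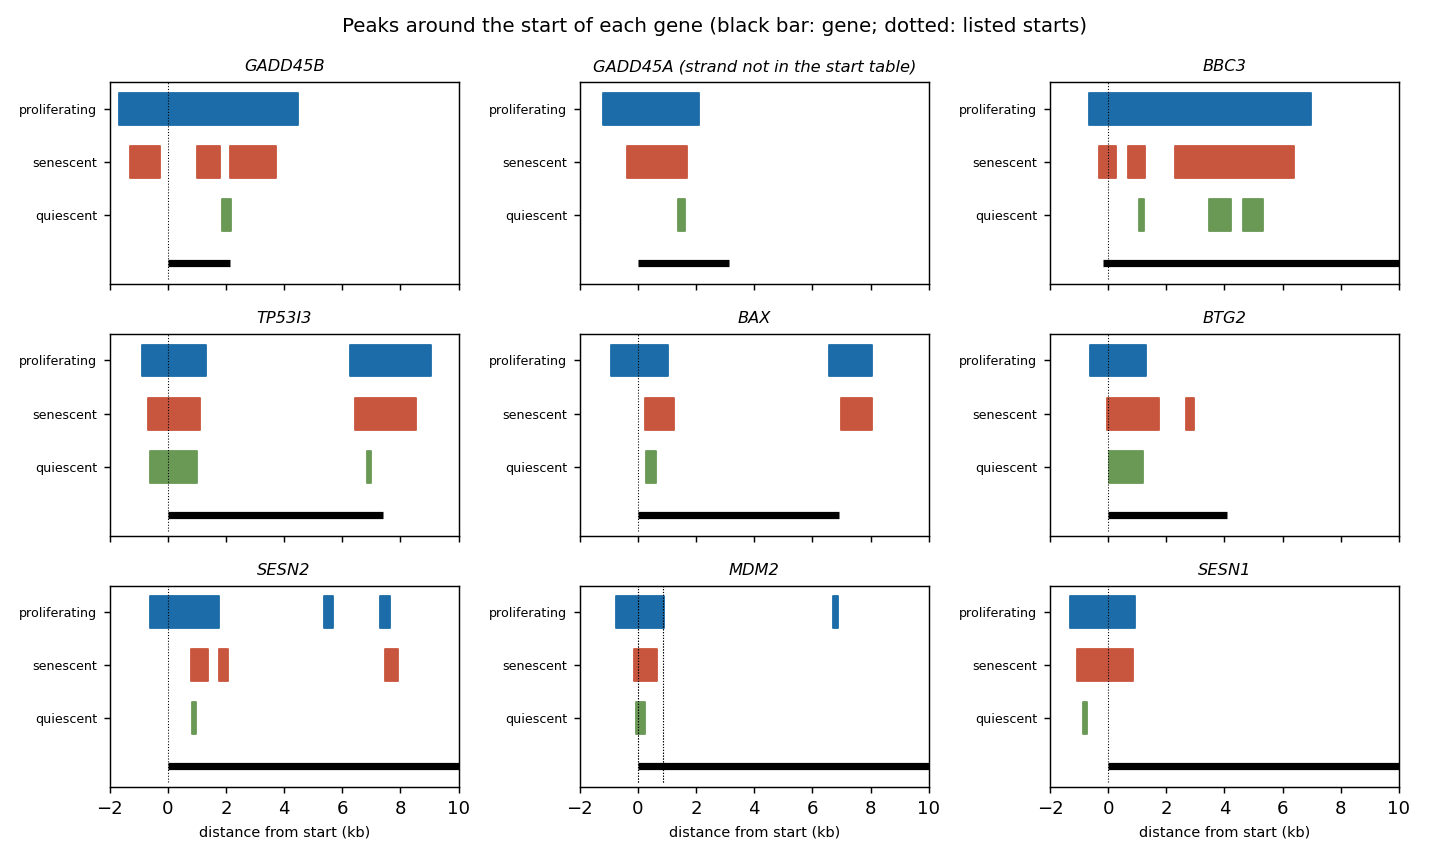
Peaks of each library (coloured bars, 1 row per state) against distance from the most upstream listed start (x axis, -2 to 10 kb; for GADD45A from the end with the lower coordinate), with the gene as a black bar and listed starts as dotted lines. The proliferating bars span the start in the 8 genes with one, while the senescent bars of BAX, GADD45B and SESN2 leave it uncovered; parts of MDM2, SESN1, SESN2 and BBC3 beyond 10 kb are not drawn.

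Across the 8 genes with a listed start, the window of 250 bases before to 50 after the most upstream start lay wholly under a proliferating peak in 8. In the senescent list 5 of the 8 windows were touched and 3 (BBC3, SESN1 and TP53I3) lay wholly under a peak. In the quiescent list 3 were touched (MDM2, BTG2 and TP53I3) and 1 lay wholly under. Counting all 13 listed windows of these genes, 12, 3 and 1 lay wholly under a peak in the 3 lists and 13, 9 and 4 were touched. Among all 22132 coding start windows 58.3%, 31.1% and 5.27% lay wholly under a peak in the 3 lists, and 68.1%, 51.5% and 16.2% were touched. These shares count every listed window of a gene, so they compare with the 13 windows and not with the 8. The wider rule of a peak within 1000 bp gave 9, 9 and 6 of the 9 genes, with either end counted for GADD45A, against 74.7%, 68.2% and 27.6% of coding genes. At the far end, 3 of 8 genes (BAX, GADD45B and TP53I3) had a peak in the proliferating and in the senescent list, where 25.1% and 21% of coding genes had one. In the quiescent list GADD45B and TP53I3 did, where 2.97% of coding genes had one. The counts at the 5' end depend on the window. They were 9, 8 and 4 of the 9 genes within 500 bp and 9, 9 and 9 within 3000 bp, for which no shares of coding genes were computed.

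On average over the 8 genes, the signal lay more after the start than before it. The mean covered share of the 1000 bp before and after the start was 80.7% and 97.6% in proliferating cells, 36.3% and 63.7% in senescent cells and 10.3% and 33.9% in quiescent cells. Over 15812 coding genes these means were 48.2% and 57.3%, 29.0% and 36.9%, and 5.74% and 7.16%. In senescent cells 6 of the 8 genes had more cover after the start and 2, GADD45B and SESN1, more before it, where 40.9% of coding genes had more after and 25.7% more before. The other 33.5% of coding genes had equal cover on the 2 sides, as none of the 8 did, so the shares are not directly alike. BAX and SESN2 had no senescent cover in the 1000 bp before the start. BTG2 had 4.6% before and 100% after. In proliferating cells 6 genes had more after, 1 more before and 1 equal cover (41.5%, 21.2% and 37.3% of coding genes). In quiescent cells these counts were 5, 1 and 2 (15.3%, 12.2% and 72.4%). The quiescent cover after the start was largest in TP53I3 (100%) and BTG2 (98.2%) and 0% in BBC3, GADD45B and SESN1.

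**Figure D3:**
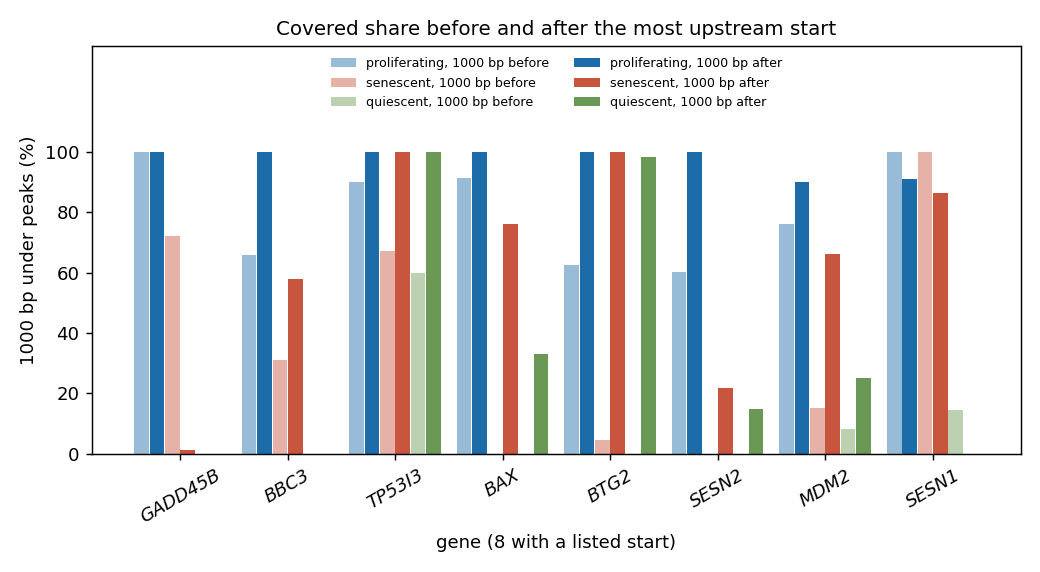
Share of the 1000 bp before (pale bars) and after (full bars) the most upstream listed start that lay under peaks (y axis, percent), for 8 genes and 3 libraries, with no error because each bar is 1 library. Pale senescent bars are absent in BAX and SESN2 and at 4.6% in BTG2, while TP53I3 and BTG2 have full quiescent bars of 100% and 98.2%.

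The base composition of the windows ranged widely. GC content was lowest in BBC3 (48%) and TP53I3 (54.3%) and highest in the upstream windows of SESN1 (75%) and MDM2 (74.7%), against a median of 62.3% over 22130 coding windows. GC skew, the excess of G over C on the strand of the gene, was highest in BBC3 (0.26, at or above 94.7% of windows) and lowest in GADD45B (-0.25, at or above 3.48%). The 3 windows wholly under a senescent peak had GC contents of 48% (BBC3), 54.3% (TP53I3) and 75% (SESN1). The 3 most upstream windows with no senescent cover had 61.7% (GADD45B), 67% (SESN2) and 67.3% (BAX). Over all coding windows the median GC content was 65.7% for those touched by a senescent peak and 56.7% for the others.

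The 9 loci held 19 proliferating, 20 senescent and 12 quiescent peaks, with median widths of 1660, 906 and 315 bp. Of the 19 proliferating peaks 14 (73.7%) overlapped a senescent peak and 10 (52.6%) a quiescent peak, against 52.1% and 10.6% of the 66380 proliferating peaks over coding loci. Those have a median width of 593 bp, and the shares were not matched on width or score. The 5 without a senescent counterpart lay inside genes, 2 in MDM2 and 1 each in BBC3, SESN1 and SESN2, and were 195 to 459 bp wide. All 12 quiescent peaks overlapped both a proliferating and a senescent peak, where 99.6% and 94.7% of quiescent peaks over coding loci did. The highest proliferating peak of each locus ranked at or above 87.1% (SESN2) to 99.98% (TP53I3) of its list. In the senescent list the range was 48.8% (GADD45A) to 99.7% (BAX) and in the quiescent list 3.29% (GADD45B) to 99.3% (BBC3).

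A further 42 genes of the p53 pathway were set beside the 9. All 42 had a proliferating peak, 41 a senescent peak and 15 (35.7%) a quiescent peak, the last close to the background of 34.4%. Their median covered percent was 12.0%, 5.67% and 0%. It was lower in senescent cells for 40, where 86.9% of all genes with a proliferating peak were lower, and at least 2 times lower for 20 (47.6%, against 30.7% of all genes). The 30.7% counts genes without a proliferating peak, which cannot be lower. Of the 16535 genes with one 6084 were at least 2 times lower. The 2 with a higher senescent value were PLK3, a stress-activated kinase gene (38.6% and 54.2%), and FUCA1, a lysosomal fucosidase gene (4.21% and 4.64%), both singled out after their values were seen.

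The role groups hold 3 to 12 genes, and differences between them were not tested. By the same rule 30.7% of all genes were at least 2 times lower in senescent cells, or 6084 of the 16535 with a proliferating peak. By role, 6 of 9 genes of feedback and p53 regulation were at least 2 times lower in senescent cells, among them TP53INP1 (12.6% and 4.96%) and RCHY1, a ubiquitin ligase gene (8.29% and 1.10%). Of 9 cell cycle targets 5 were, with GADD45G above and SFN, the gene of the checkpoint protein 14-3-3 sigma (68.5% and 29.96%). Of 12 death targets 1 was: PMAIP1, which encodes NOXA (43.8% and 19.2%); PIDD1, the gene of a death domain protein, had 46.4% and 28.4%. Of 9 metabolism and stress targets 5 were, among them GDF15, a secreted stress cytokine (32.1% and 6.75%), while SCO2, a cytochrome oxidase assembly gene, had 63.5% and 53.6%. All 3 repair genes were, including XPC, a sensor of bulky DNA damage (13.6% and 1.49%), and DDB2, which binds ultraviolet lesions (16.0% and 6.94%). MDM4 was the one gene with a peak in only 1 of these 2 lists.

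**Figure D4:**
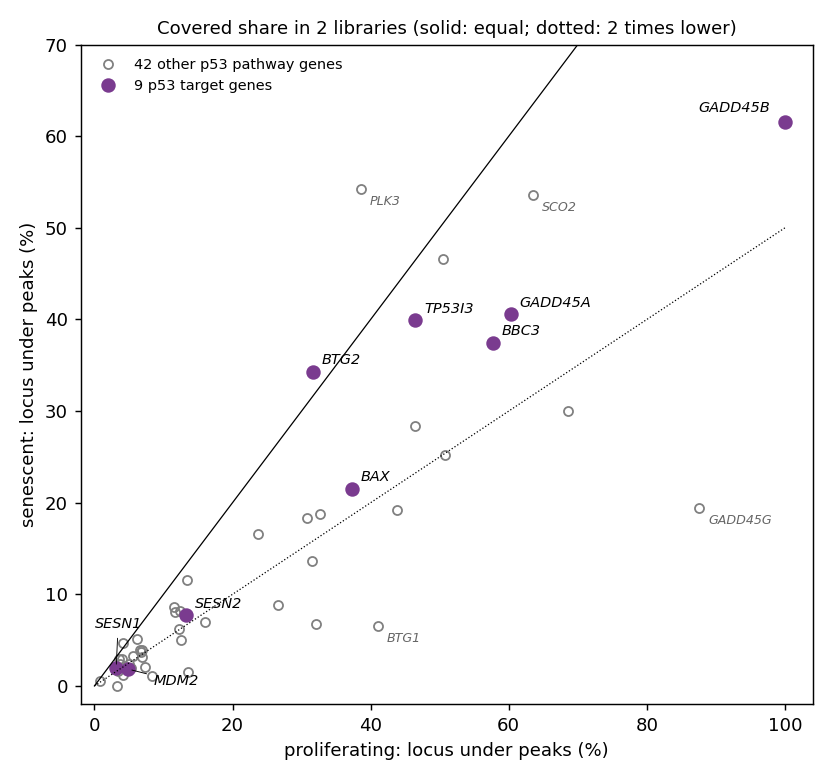
Covered percent of the locus in senescent (y axis) against proliferating cells (x axis) for the 9 p53 target genes (filled) and 42 other p53 pathway genes (open), 1 library each, with the line of equal values (solid) and of 2 times lower values (dotted). BTG2 (31.6% and 34.3%) lies just above the solid line and BTG1 (41.0% and 6.53%) far below the dotted one.

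By the summed absolute difference of covered percent over the 3 libraries, among genes with a locus within 1.5 times its length, BTG2 was most like SSR4 (5.07 points), S1PR1 (8.41) and MIA (8.90) of 2972 genes. MDM2 was most like SGPP1 (0.32 points), ATG13 (0.405) and CTSC (0.420) of 4262 genes.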

How the data were processed

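MapR libraries of IMR90 cells were deposited as 1 peak list per RH-MNase library, with no replicates. The build is GRCh38 and the tools are Bowtie2 2.4.5, FastQC 0.11.9 and MACS2 2.2.7.1, per the submitters' processing notes. No source used here gives their settings, the control or the read filters. The score of each peak is the authors' deposited value, a whole number of at least 10 on an unstated scale, and was used only to rank peaks within a list.

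Genes came from RefSeq GRCh38.p14 (19821 protein-coding genes on chromosomes 1 to 22 and X, without alternate sequences), and starts, strand and windows from RefSeq promoters, which cover 8 of the 9 genes. Covered percent and overlaps of at least 1 bp were computed in Python 3.11.15 with numpy 2.4.6, after a check on simulated peaks. All planned designs were descriptions without a test. A gene was called at a fold of 2; peaks in 1 list alone count as called. The p53 half-site (palindromic, so read on 1 strand) was planned; pairs with up to 3 mismatches were added later. Named were all 9 genes, their paralogs, neighbours that start under a member's peak, per pathway role the 2 most covered in proliferating cells and those with a peak in 1 of the proliferating and senescent lists, and the 3 genes most like BTG2 and MDM2. Members and lists were chosen with earlier results of these data known.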

Additional observations from a re-analysis of the deposited data

How the results depend on the processing

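No paired analysis was possible because each state has 1 library, and no replicate could be left out. A value was taken as moved when it changed by more than 1.5 times. With equal numbers of peaks (9736 per list), 5 members had a senescent peak (28.9% of all protein-coding genes) and 4 one at the 5' end, the senescent mean was 8.94% and its ratio to the proliferating mean 0.28 (0.48 over all genes). In that setting 4 members were at least 2 times lower in senescent cells (24.2% of all genes), 5 lower and 2 higher in quiescent cells (34.1% and 10.4%), and 5 proliferating peaks had a senescent counterpart. No background share was computed for the 5' end count or the counterpart count in that setting, nor the number of member peaks left. MDM2 had 0% in both the proliferating and the senescent list there and was not called. The 1 member at least 2 times lower in senescent cells (30.7% of all genes) became 4 when peaks under the median score were left out (35.9%). It became 3 with no flank (32.5%), 2 with a flank of 500 bp (30.9%) and 6 at a fold of 1.5 (49.6%). These shares also count genes without a proliferating peak, which cannot be called lower. With 50% of both peaks required, 8 of 19 proliferating peaks (42.1%) had a senescent counterpart, against 26.3% of the 66380 proliferating peaks over coding loci. The senescent minus proliferating difference of BTG2 was -2.09 points without peaks under the median score and also -2.09 points with equal numbers of peaks. In the main setting the ratio of the senescent to the proliferating mean was 0.70, against 0.63 over all protein-coding genes. With no flank it was 0.72, against 0.63. At equal covered length it was 0.71, against 0.83, and without peaks under the median score 0.51, against 0.57. The members' ratio thus lay above the background in the main setting and below it when the lists were cut by score, count or length. The causes were not tested. Unknown read depth limits every comparison between lists.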

Other observations

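CDKN1A, the gene of the kinase inhibitor p21 and the best-known p53 target, was looked at after its values were seen. Its locus was 50.8% under proliferating peaks and 25.2% under senescent peaks, at least 2 times lower, with no quiescent peak. Each of the 9 loci described above had one, as did 15 of the 42 other pathway genes and 34.4% of all protein-coding genes. PHLDA3, which encodes an inhibitor of the kinase AKT, had 50.5%, 46.6% and 4.93% of its locus covered in proliferating, senescent and quiescent cells, and was chosen in the same way. Of the 42 other pathway genes 14 had a peak in all 3 lists, a share near the 34.2% of all protein-coding genes.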
